A study of Mus musculus with 15 samples.

Results

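Heat shock proteins and chaperones are described here through 10 mouse genes, chosen by symbol from the 46078 gene rows of a brain RNA-seq count table. They are Hspa1a, Hspa1b, Hspa5, Hspa8, Hsp90aa1, Hsp90ab1, Dnajb1, Hsph1, Hspb1 and Hspe1. All 10 had a row and all 10 passed the filter on low counts. The rule takes genes by name and applies no measured value, although the set was proposed with results of these data known.

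The tissue came from 15 mice, 1 library each, and every mouse was 12 months old at treatment. They formed 3 groups of 5: wild-type (WT) animals with PBS, APP-PS1 animals with PBS, and APP-PS1 animals with the CD8a antibody clone 2.43. APP-PS1 mice, a model of amyloid deposition, have 2 transgenes, the chimeric mouse/human precursor Mo/HuAPP695swe and the human presenilin mutant PS1-dE9, which the prion protein promoter drives in neurons. WT mice have neither. Treatment ran for 4 weeks with 10 intraperitoneal injections of 0.8 mg antibody, and PBS mice received 100 µL. The tissue was a region of 1 hemisphere, whose name the sources used here do not state. An isotype antibody named in the protocol was not analysed here, so the treatment comparison sets antibody against PBS. The labels give 4 females and 1 male in the WT group, and 2 females and 3 males in each APP-PS1 group.

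Chaperones hold unfolded or partly folded proteins and help them to fold, to cross membranes or to be degraded. In the cytosol, J-domain proteins such as Dnajb1 hand clients to HSP70 proteins, Hsph1 exchanges their nucleotide, and HSP90 proteins act later on kinases and receptors. Heat shock factor 1, a transcription factor that binds repeats of the motif GAA called heat shock elements, raises the inducible members when unfolded protein accumulates. The endoplasmic reticulum (ER) has its own HSP70, Hspa5 (BiP), which is raised by the unfolded protein response through the factors Atf6 and Xbp1.

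Promoter sequences of members were searched for the letters of elements tied to these control systems. The 3 below belong to the gene with the clearest differences and to the stress-inducible pair. RefSeq promoters (GRCm38.p6, 250 bases before to 50 bases after a start site) were at hand for 7 of the 10 members. The ER stress element was searched on both strands as CCAAT followed, after 9 bases of any kind, by CCACG. The heat shock element was searched as 2 units, GAA then TTC or TTC then GAA, with 2 bases of any kind between them, which each read the same on both strands. Capitals mark the ER stress element in Hspa5 and the heat shock element in the other two.
Hspa5, chr2:34771840-34772139, plus strand: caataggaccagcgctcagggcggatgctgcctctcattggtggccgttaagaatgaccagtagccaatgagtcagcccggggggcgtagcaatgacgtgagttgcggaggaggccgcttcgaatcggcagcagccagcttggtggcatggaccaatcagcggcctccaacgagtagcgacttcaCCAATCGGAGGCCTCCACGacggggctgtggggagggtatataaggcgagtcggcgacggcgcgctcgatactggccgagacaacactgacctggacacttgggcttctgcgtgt
Hspa1a, chr17:34972107-34972406, minus strand: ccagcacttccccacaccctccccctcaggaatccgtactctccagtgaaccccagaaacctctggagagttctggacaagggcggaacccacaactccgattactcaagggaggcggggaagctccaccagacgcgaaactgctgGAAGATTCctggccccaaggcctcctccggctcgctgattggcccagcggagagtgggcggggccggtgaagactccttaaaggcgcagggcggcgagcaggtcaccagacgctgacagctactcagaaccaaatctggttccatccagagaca
Hspa1b, chr17:34959189-34959488, minus strand: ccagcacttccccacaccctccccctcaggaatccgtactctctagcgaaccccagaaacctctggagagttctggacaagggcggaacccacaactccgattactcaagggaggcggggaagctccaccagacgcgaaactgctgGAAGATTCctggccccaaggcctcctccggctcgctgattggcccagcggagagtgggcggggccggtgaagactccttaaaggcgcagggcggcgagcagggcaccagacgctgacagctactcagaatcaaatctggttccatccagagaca

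The ER stress element of Hspa5 began 65 bases before the start site, and 39 of 32851 promoters of this length (0.119%) held a match. Hspa5 was the single match among the 7 member promoters. The 2-unit heat shock element lay in 5 of the 7 member promoters (Hspa1a, Hspa1b, Hspb1, Hsph1 and Hspe1) and in 15.1% of all promoters. The form with 3 alternating units, which contains the 2-unit form, lay in Hsph1 and Hspe1 and in 0.603% of all promoters. Dnajb1 and Hspa5 had no heat shock element in these letters in this window. A match here is a description of letters and not of binding.

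Hspa1a and Hspa1b, the stress-inducible cytosolic HSP70 genes, sit near each other on chromosome 17 as single-exon genes (34969190 to 34972156 and 34956436 to 34959238, GRCm38, minus strand). Their promoters were 98.7% identical. The 4 differences, written from Hspa1a to Hspa1b and counted from the 5′ end of the window, were C44T, T47C, T249G and C276T, all outside the heat shock element, which began 104 bases before the start site in both. Of the 75-base windows of the Hspa1a transcript 54.2% also occur in another gene, chiefly Hspa1b, and of those of Hspa1b 55.8%. The counting set aside reads recorded as not uniquely aligned (2.70 to 2.92% per library), so counts of these 2 genes may be too low. It is also uncertain which copy any counted read of a shared window came from. The windows of Hspa8 (68.0%), Hsp90aa1 (53.1%) and Hspb1 (47.3%) were shared with pseudogene-like copies. The copies with a row in the table had counts of at most 0.146% of each gene's own. These low counts cannot show how many reads of the genes were set aside as not unique. Of the 9 copies for Hspa8, Gm6210 and Gm7232 were not matched to a row. Hspe1 shared 23.7% of its windows, with AC117239.2, which was not matched to a row either. Hspa5, Dnajb1 and Hsph1 shared no window with another gene.

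Libraries held between 17736524 and 36485809 counts assigned to genes, so 3 counts correspond to 0.0822 to 0.169 CPM (counts scaled to library size), a floor for counting error only. Neuronal markers were present in every library, with 8 of 8 above 0 and a summed level of 7204 to 8015 CPM. Ttr (transthyretin), which choroid plexus epithelium makes in bulk, exceeded 1000 CPM in 5 libraries (WT replicates 3 and 5, APP-PS1 PBS replicates 2 and 5, anti-CD8a replicate 1), which are called choroid-rich below. The labelled sex matched Xist and Y-linked genes in 14 of 15 libraries, and the library labelled APP-PS1 PBS replicate 1 went against its label. Each library carries its own animal number and is 1 mouse.

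Per length of exon, the HSP90 genes and Hspa8 were highest, and Hspb1 and the inducible HSP70 genes lowest. Hsp90ab1, the constitutive HSP90, was highest at 544 ± 31.0 CPM per kb (SD, n = 15), above every other member in all 15 libraries. Hsp90aa1, the inducible HSP90 isoform, followed at 241 ± 19.6 CPM per kb, and Hspa8, the constitutive HSP70 (Hsc70), at 221 ± 18.9 CPM per kb. These neighbours overlapped, with Hsp90aa1 above Hspa8 in 13 of 15 libraries on merged exon lengths of 3931 and 4301 bases. Their longest coding transcripts have 3281 and 2394 bases, so the order of this pair depends on the length used. Both also share windows with other genes, so their counts may be too low. Hspa5 stood at 87.4 ± 22.9 CPM per kb, and Hsph1, the HSP110 exchange factor, at 48.7 ± 3.05 CPM per kb. Hspe1, the mitochondrial co-chaperonin HSP10, reached 42.8 ± 2.56 CPM per kb, and Dnajb1 (HSP40) 12.4 ± 1.09 CPM per kb. On merged exon lengths each of these 4 lay above the next in order in all 15 libraries. The ranges of Hsph1 and Hspe1 overlapped between libraries. Merged lengths of Hsph1 (7266 bases) and Hspe1 (1474) also exceed their longest coding transcripts (3802 and 774), so these levels depend on the length used. The longest coding transcript of Hspa5 has 3672 bases, against a merged length of 4229. The order of Hspa5 against Hsph1 and Hspe1 in single libraries therefore depends on the length used as well.

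The lowest levels belonged to Hspb1, the small heat shock protein HSP25, and to the inducible HSP70 genes. Hspb1 was at 2.54 ± 0.719, Hspa1b at 1.85 ± 0.50 and Hspa1a at 0.981 ± 0.198 CPM per kb. Their counts may be too low, because 47.3% to 55.8% of their transcript windows also occur in other genes. Hspb1 exceeded Hspa1b in 13 of 15 libraries, so this pair was not separated by its spread. Spread across the 15 libraries, as a coefficient of variation of CPM, was 28.3% for Hspb1, 27.0% for Hspa1b, 26.2% for Hspa5 and 20.2% for Hspa1a. The other 6 members varied by 5.69 to 8.80%. Hspa5 therefore combined a high level with a spread otherwise seen in the scarcest members.

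**Figure D1:**
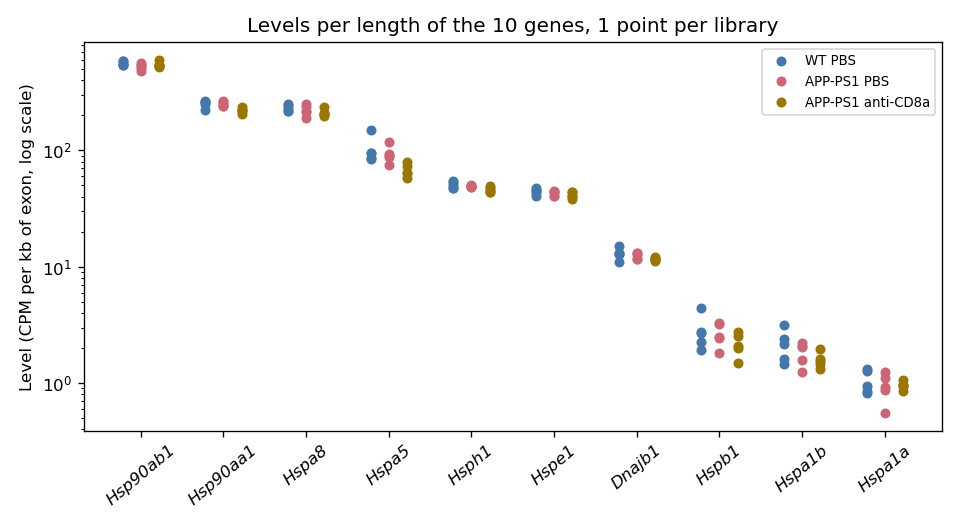
Levels of the 10 genes per length of exon (CPM per kb, log scale), 1 point per library, coloured by group and ordered by the mean over 15 libraries. Hsp90ab1 lies highest at 544 CPM per kb and Hspa1a lowest at 0.981, and the points of Hspa5 and of the 3 lowest genes are the most spread.

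The HSP70 of the ER, Hspa5 (chromosome 2, 34771970 to 34777547, plus strand), showed the clearest difference between groups. In WT mice it was at 354, 401, 360.3, 403 and 629 CPM in replicates 1 to 5. In APP-PS1 mice given PBS it was at 377, 502, 373, 395 and 315 CPM. In APP-PS1 mice given anti-CD8a it was at 308, 336, 272, 272 and 244 CPM. Every treated library lay below every WT library, and the treated and PBS ranges of APP-PS1 mice met only through PBS replicate 5. WT replicate 5, the single WT male, stood far above the other WT libraries.

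The cytosolic HSP70 genes overlapped between all groups. Hspa1b was at 4.11, 6.67, 4.53, 6.02 and 8.80 CPM in WT mice, at 6.25, 4.45, 3.47, 5.70 and 5.80 CPM in APP-PS1 mice given PBS and at 4.51, 4.37, 3.70, 4.06 and 5.47 CPM in treated mice. The highest value was again WT replicate 5. Hspa1a ranged from 2.43 to 3.91 CPM in WT mice, from 1.63 to 3.69 in APP-PS1 mice given PBS and from 2.54 to 3.14 in treated mice. Hspa8 was at 1052, 938, 993, 937 and 1075 CPM in WT mice, at 933, 1066, 911, 1019 and 818 CPM in APP-PS1 mice given PBS and at 885, 1008, 892, 877 and 849.6 CPM in treated mice. Among treated mice, 4 libraries lay close together below all WT values and replicate 2 lay above.

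Of the partners of HSP70, Dnajb1 was at 35.1, 42.0, 41.0, 41.2 and 48.7 CPM in WT mice, at 42.0, 42.4, 37.5, 37.6 and 40.6 CPM in APP-PS1 mice given PBS and at 38.9, 37.1, 38.4, 36.5 and 35.5 CPM in treated mice. The treated libraries were the most alike, and WT replicates 1 and 5 held both extremes. Hsph1 was at 369, 342, 346, 392 and 393 CPM in WT mice, at 351, 361, 369, 359 and 354 CPM in APP-PS1 mice given PBS and at 334, 358, 342, 318 and 317 CPM in treated mice. Treated replicate 2 was the one treated library that reached into the PBS range of APP-PS1 mice.

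Among the HSP90 genes, Hsp90aa1 was at 1024, 866, 993, 1035 and 1016 CPM in WT mice, at 945, 1024, 989, 945 and 1034 CPM in APP-PS1 mice given PBS and at 853, 921, 812, 869 and 865 CPM in treated mice. All 5 treated libraries lay below all 5 PBS libraries of APP-PS1 mice, and WT replicate 2 lay among the treated values. Hsp90ab1 spanned 1629.7 to 1772 CPM in WT mice, 1446 to 1689.5 in APP-PS1 mice given PBS and 1549 to 1789 in treated mice. Hspe1 spanned 59.2 to 69.8, 59.3 to 66.5 and 56.7 to 64.3 CPM in the same order of groups. Hspb1 spanned 1.99 to 4.56, 1.88 to 3.39 and 1.54 to 2.82 CPM. These 3 genes overlapped between all groups.

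**Figure D2:**
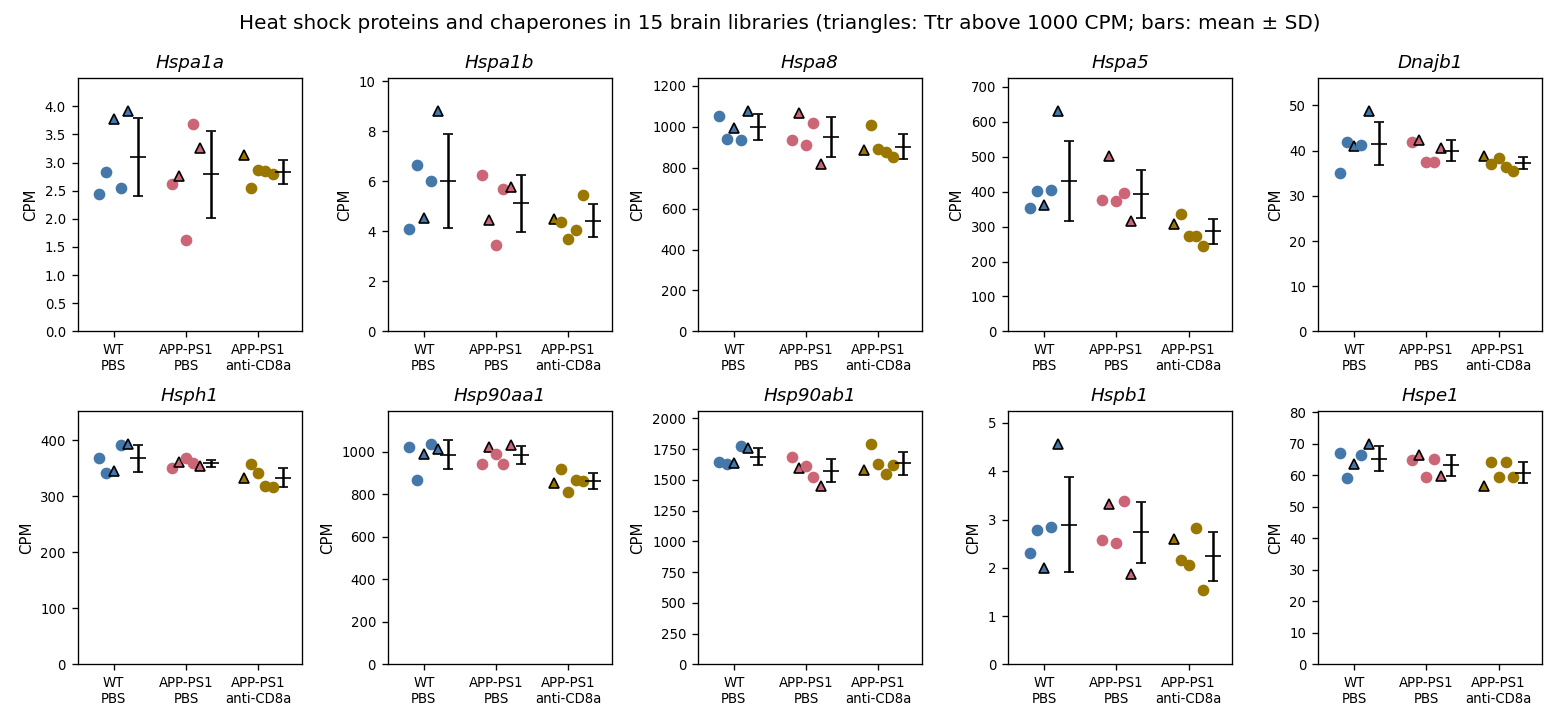
CPM of each of the 10 genes by group, 1 point per library, with triangles for the 5 choroid-rich libraries and bars for the mean ± SD of 5 libraries. Hspa5 runs from 244 to 336 CPM in treated mice against 354 to 629 in WT mice, and Hsp90aa1 from 812 to 921 CPM in treated mice against 945 to 1034 in APP-PS1 mice given PBS.

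The first comparison asked whether the transgenes alone change these genes, in mice given PBS. No member passed edgeR's quasi-likelihood test, where 1.03% of the 18974 genes tested passed in either direction. In the lower direction 0.0896% of genes passed. No member reached an unadjusted p of 0.05, where 6.02% of genes did so in the lower direction, and DESeq2 called 0 as well (0.436% of genes lower). All 10 estimates were lower in APP-PS1 mice, except that Hsp90aa1 (-0.0026) lay above 0 with RLE size factors (0.0019) or library size alone (0.013). The median was a log2 fold change of -0.10 against -0.011 over all genes tested, of which 53.1% had a lower estimate. No member had all APP-PS1 libraries below all WT libraries, which 1.06% of genes had. Hspa1b had the lowest estimate, -0.28 (SE 0.20), and Hsp90ab1 the smallest adjusted p, 0.516, at -0.11 (SE 0.06) in edgeR.

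For several members the data limited any genotype effect to a narrow interval. The 95% interval of the log2 fold change ran from -0.15 to 0.08 for Hsph1, from -0.13 to 0.13 for Hsp90aa1 and from -0.18 to 0.07 for Hspe1. It was wider for Hspa5, from -0.51 to 0.09, and widest for Hspb1, from -0.63 to 0.28. Without the choroid-rich libraries the estimates of Hspa1a (0.20), Hspa5 (0.10), Hspa8 (0.064), Hsph1 (0.028) and Hspb1 (0.20) were above 0, as were those of Hspa1a (0.065), Hspa5 (0.021), Hsph1 (0.017) and Hspb1 (0.10) without WT replicate 5 alone.

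The second comparison asked what anti-CD8a changed in APP-PS1 mice. No gene of the 18974 passed edgeR's test (0%), and 0 of the 10 members did. Hspa5 and Hsp90aa1 reached an unadjusted p of 0.05 in the lower direction, against 5.74% of all genes. DESeq2 called 1 member, Hsp90aa1, where it called 0.529% of genes lower. The median log2 fold change of the members was -0.10, beside 0.015 over all genes tested, and 8 estimates were lower, as were 45.9% of those of all genes, and 2 higher, Hsp90ab1 and Hspa1a (0.026). The estimate of Hspa1a was below 0 without APP-PS1 PBS replicate 3 (-0.12) and without anti-CD8a replicate 1 (-0.017). The summed counts of Hspa1a and Hspa1b had an estimate of -0.13.

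Hsp90aa1 averaged 864 ± 38.9 CPM in treated and 987 ± 41.9 CPM in PBS-given APP-PS1 mice (SD, n = 5 each). Its log2 fold change was -0.19 (SE 0.06), with an adjusted p of 0.247 in edgeR and 0.0437 in DESeq2. It was the one member whose treated libraries all lay below all PBS libraries, as did 0.843% of genes tested. A two-sided exact permutation test of its log2 CPM gave p = 0.00794, the smallest that the 252 arrangements of 5 against 5 allow. Its constitutive paralog Hsp90ab1 had an estimate of 0.05 (SE 0.06), with an interval from -0.07 to 0.18.

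Hspa5 averaged 287 ± 35.8 CPM in treated and 392 ± 68.3 CPM in PBS-given APP-PS1 mice. Its log2 fold change was -0.44 (SE 0.14, interval -0.73 to -0.15), the lowest of the 10. The adjusted p was 0.250 in edgeR and 0.0594 in DESeq2, and the exact permutation p of its log2 CPM was 0.0159. Hsph1 was next by p, at -0.10 (SE 0.05, adjusted p = 0.387 in edgeR). Hspa1b (-0.23, SE 0.20) and Hspb1 (-0.31, SE 0.21) had larger estimates with intervals that included 0.

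The third comparison set treated APP-PS1 mice against WT mice, which differ in both genotype and treatment, and it shares its groups with the other two. Hspa5 fell and passed the test, 1 of 10 members, where 0.184% of genes passed in the lower direction and 1.94% in either. Its level was 287 ± 35.8 CPM against 429.7 ± 114 CPM (SD, n = 5 each), with an estimated log2 change of -0.65 (SE 0.14, 95% interval -0.95 to -0.35). The adjusted p was 0.0218 in edgeR's quasi-likelihood test and 0.000472 in DESeq2. All treated libraries lay below all WT libraries, as did 0.875% of genes tested, with an exact permutation p of 0.00794. Fewer cells that express Hspa5 and less Hspa5 RNA per cell cannot be told apart in tissue RNA.

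The Hspa5 call was lost without WT replicate 5 (log2 fold change -0.43, adjusted p = 0.139 in edgeR) and without anti-CD8a replicate 3 (-0.67, adjusted p = 0.0869), within a range of 0.00489 to 0.139 over the 15 libraries left out in turn. It was also lost without the sex covariate (-0.58, adjusted p = 0.0633 in edgeR) and with only the 2 groups in the fit (-0.65, adjusted p = 0.0590).

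The other 9 members did not pass edgeR's test against WT mice. Their estimates were all lower, except that Hspa1a (-0.12) lay above 0 without the choroid-rich libraries (0.23) or WT replicate 5 (0.11). With Hspa5 the median was -0.17 against -0.0032 over all genes tested, of which 51.1% had a lower estimate. Unadjusted p was under 0.05 in the lower direction for 6 members, where 5.29% of genes reached it. DESeq2 called 2 members, Hspa5 and Hsp90aa1, and 0.549% of genes lower. The estimate for Hsp90aa1 was -0.19 (SE 0.06), at an adjusted p of 0.164 in edgeR and 0.0377 in DESeq2. Dnajb1 (-0.19, SE 0.07), Hsph1 (-0.14, SE 0.05), Hspa1b (-0.51, SE 0.20) and Hspb1 (-0.48, SE 0.21) were the rest of the 6.

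**Figure D3:**
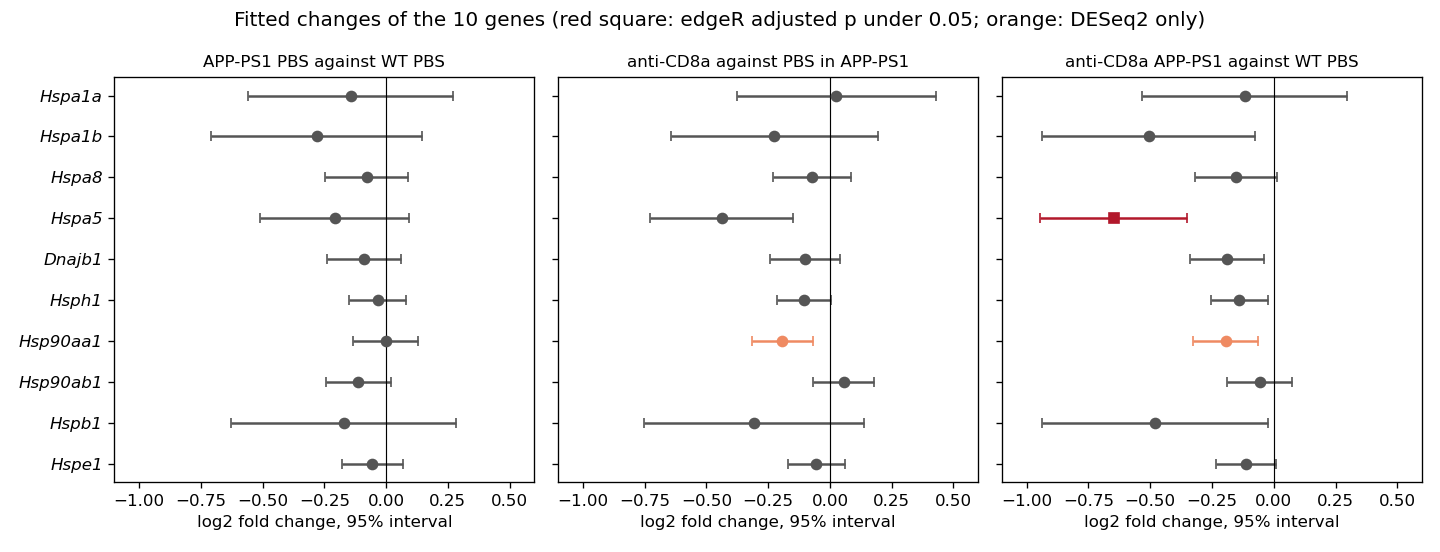
Log2 fold changes of the 10 genes in the 3 comparisons, with 95% intervals from edgeR. The square marks the one edgeR call, Hspa5 at -0.65 in treated APP-PS1 against WT mice, and orange points mark Hsp90aa1, called by DESeq2 only.

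Levels of Hspa5 were set beside the choroid plexus content, which differed between the libraries. The 10 choroid plexus markers had a summed level of 79.1 to 7312 CPM in WT mice, 80.7 to 4685 CPM in APP-PS1 mice given PBS and 64.8 to 2139.7 CPM in treated mice, and none was at 0 in any library. All 10 had lower estimates in treated than in WT mice (median log2 fold change -2.12), with 0 past edgeR's threshold, 0 called by DESeq2 where it gave an adjusted p, and 3 at an unadjusted p under 0.05. The 2 libraries with the most Ttr, WT replicate 5 (6468 CPM) and APP-PS1 PBS replicate 2 (4122 CPM), also had the most Hspa5. The other 3 choroid-rich libraries had 360.3, 315 and 308 CPM of Hspa5, inside the range of the rest.

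Without the 5 choroid-rich libraries, Hspa5 ran from 354 to 403 CPM in 3 WT mice, from 373 to 395 CPM in 3 APP-PS1 mice given PBS and from 244 to 336 CPM in 4 treated mice. The treated libraries then lay below all others, but the share of all genes with such a split was not computed for these smaller groups. The log2 fold change was -0.38 against WT mice (adjusted p = 0.107 in edgeR) and -0.48 against APP-PS1 mice given PBS (adjusted p = 0.171 in edgeR), with fewer libraries in the fit. Ependymal markers, 6 of 6 lower in treated than in WT mice with a median of -0.76, ranged from 8.12 to 55.1 CPM in sum, and their part in the result was not tested.

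**Figure D4:**
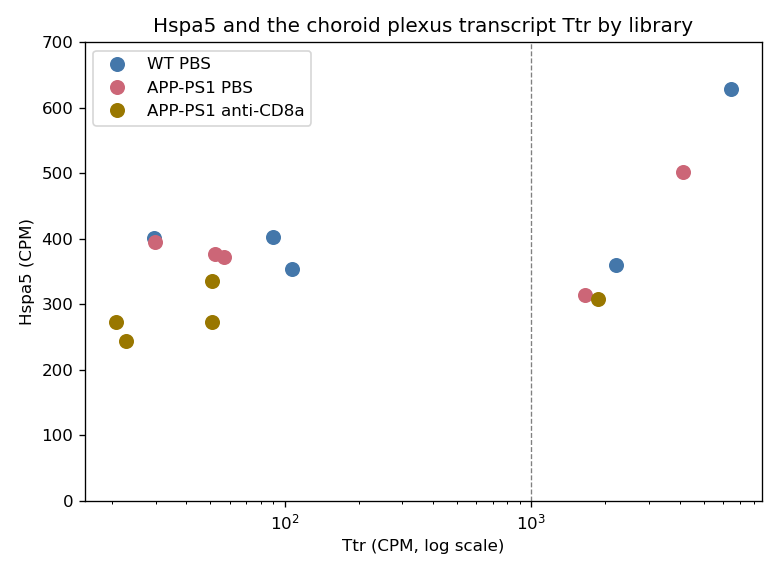
Hspa5 (CPM) against Ttr (CPM, log scale), 1 point per library, with a dashed line at 1000 CPM of Ttr. Left of the line the 4 treated libraries (244 to 336 CPM of Hspa5) lie below the 6 PBS libraries (354 to 403), and the highest Hspa5 values lie at the far right. The share of all genes with this split was not computed.

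The other genes of the ER stress response were described with Hspa5, from a list of 19 chaperones, folding enzymes and sensors. In treated against WT mice all 19 had lower estimates (median log2 fold change -0.27), and 3 fell past edgeR's threshold, where 0.184% of all genes did. An unadjusted p under 0.05 was reached by 14, all lower, beside 5.29% of all genes. DESeq2 called 7 lower, beside 0.549% of all genes. Xbp1, a transcription factor of the response, fell by 0.44 on the log2 scale (SE 0.09, adjusted p = 0.0136 in edgeR). Herpud1, which takes part in the degradation of ER proteins, fell by 0.36 (SE 0.08, adjusted p = 0.0244 in edgeR). Manf, a secreted ER stress factor, fell by 0.57 (SE 0.13, adjusted p = 0.0324 in edgeR).

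Xbp1 was at 68.4, 82.2, 71.5, 77.0 and 94.7 CPM in WT mice, at 75.6, 86.4, 77.1, 76.3 and 66.0 CPM in APP-PS1 mice given PBS and at 65.0, 66.6, 55.0, 61.0 and 52.2 CPM in treated mice. As for Hspa5, WT replicate 5 was highest, all treated values lay below all WT values, and PBS replicate 5 alone reached the treated range. Manf ran from 26.6 to 31.7 CPM in treated and from 34.3 to 59.8 CPM in WT mice, without overlap. Of the 19 genes, 3 had all treated libraries below all WT libraries, beside 0.875% of all genes tested. Herpud1 overlapped, at 31.0 to 38.1 against 37.4 to 51.6 CPM. Without the choroid-rich libraries 0 of the 19 passed, with fewer libraries in the fit. Xbp1 then averaged 58.7 CPM (52.2 to 66.6) in 4 treated and 75.9 CPM (68.4 to 82.2) in 3 WT mice, still without overlap. The share of all genes without overlap was not computed for groups of this size. The count was also 0 without WT replicate 5 and without anti-CD8a replicate 3, 1 without WT replicate 2 and 6 without anti-CD8a replicate 2.

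The list was not uniform. The DESeq2 calls beyond these 3 were Creld2 (-0.54), Pdia4 (-0.49), Pdia6 (-0.33) and Dnajb9 (-0.27), folding factors and a co-chaperone of Hspa5. The stress-induced transcription factors Ddit3 (-0.028) and Atf4 (-0.047) and the sensor Atf6 (-0.037) had estimates near 0 in the same comparison. RNA levels do not show the activity of these factors, which was not measured. In treated against PBS-given APP-PS1 mice 17 of 19 estimates were lower (median -0.18), beside 45.9% of all genes tested. Of the 19, 0 passed edgeR's test and 8 had an unadjusted p under 0.05, all lower, beside 5.74% of all genes. DESeq2 called Xbp1 (-0.34, SE 0.08, adjusted p = 0.0253 in DESeq2 and 0.223 in edgeR), where it called 0.529% of genes lower. Between the genotypes 18 of 19 were lower (median -0.10), beside 53.1% of all genes, and 0 passed either test. An unadjusted p under 0.05 was reached by 3, all lower, beside 6.02% of all genes. The ER stress element was found in 6 of the 16 promoters of the list that were at hand, Creld2, Pdia6, Calr, Canx, Hsp90b1 and Dnajc3, and not in those of Xbp1 and Herpud1.

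**Figure D5:**
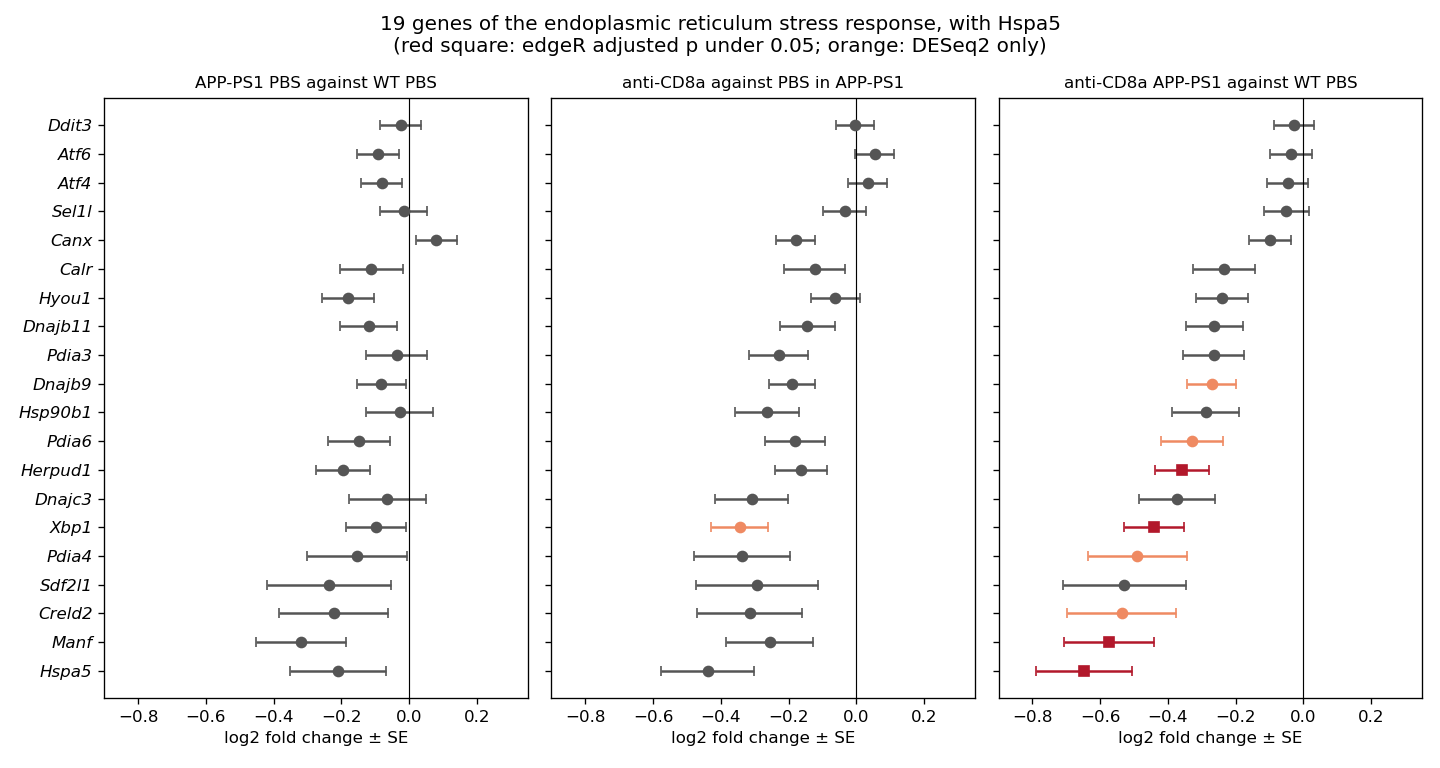
Log2 fold changes ± SE of the 19 ER stress response genes and Hspa5 in the 3 comparisons, ordered by treated APP-PS1 against WT mice. Squares mark edgeR calls (Hspa5, Manf, Xbp1 and Herpud1), orange points DESeq2 calls only, and Ddit3, Atf4 and Atf6 lie near 0 at the top.

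Heat shock factors, which control the cytosolic members, gave no call. Of Hsf1, Hsf2, Hsf4 and the factor-binding protein Hsbp1, 0 passed edgeR or DESeq2 in any comparison, and 0 reached an unadjusted p of 0.05. Hsf1, the master factor of the heat shock response, was at 27.1 ± 1.23 CPM in treated and 26.2 ± 2.44 CPM in PBS-given APP-PS1 mice (log2 fold change 0.05, SE 0.06). Hsf2 was at 31.8 ± 0.624 against 34.9 ± 3.08 CPM (-0.13, SE 0.07). These are RNA levels, and the activity of the factors was not measured.

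Further chaperones gave no edgeR call in any of the 3 comparisons. The lists held 9 other HSP70 and HSP110 genes tested of 10, 2 other HSP90 genes, 19 J-domain proteins, 6 other small heat shock proteins tested of 7, 9 chaperonin subunits and 22 cochaperones. Of these, Hyou1, Hsp90b1, Dnajb9, Dnajb11 and Dnajc3 also stand in the ER list. In treated against WT mice lower estimates numbered 8 of 9, 2 of 2, 16 of 19, 4 of 6, 9 of 9 and 19 of 22 in that order of lists. Their medians were -0.10, -0.18, -0.09, -0.15, -0.14 and -0.12, beside -0.0032 and 51.1% lower estimates over all genes tested. An unadjusted p under 0.05 was reached by 3, 1, 6, 1, 5 and 7 genes, all lower, beside 5.29% of all genes.

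Single genes of these lists were called by DESeq2. Over all genes it called 0.529% lower and 0.507% higher in treated against PBS-given APP-PS1 mice. The shares it called lower were 0.436% between the genotypes and 0.549% in treated against WT mice. In treated against PBS-given APP-PS1 mice these were the HSP90 cochaperones Cacybp (-0.25, SE 0.06, adjusted p = 0.0218 in DESeq2 and 0.223 in edgeR) and Chordc1 (-0.25, SE 0.06, adjusted p = 0.0360 in DESeq2), and the J-domain genes Dnajb4 (-0.18) and Dnajb5 (0.27). Cacybp was at 69.8 ± 4.38 CPM in treated and 82.9 ± 3.87 CPM in PBS-given mice, without overlap (62.1 to 72.6 against 78.1 to 87.9). Of all genes tested, 0.843% had all treated libraries below all PBS libraries of APP-PS1 mice. Dnajb5 had estimates of opposite sign in the first 2 comparisons, which share the PBS-given APP-PS1 mice. It was at 156 ± 5.57 CPM in WT mice, 127 ± 11.1 CPM in APP-PS1 mice given PBS and 153 ± 15.8 CPM in treated mice, and DESeq2 called the genotype difference (-0.30, SE 0.07, adjusted p = 0.0111 in DESeq2 and 0.0702 in edgeR). In treated against WT mice DESeq2 also called the chaperonin subunits Cct6a and Cct4 (-0.17 each) and Cacybp (-0.23).

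Hspe1 and the chaperonin it caps, Hspd1 (HSP60), overlap head to head on chromosome 1, with Hspd1 on the minus strand from 55077835 to 55088243 and Hspe1 on the plus strand from 55088132 to 55091307. No source used here states the strand setting of the counting, so reads in the 112 shared bases cannot be assigned with certainty. Hspe1 was 60.8 ± 3.28 CPM in treated and 65.2 ± 4.01 CPM in WT mice (-0.11, SE 0.06), and Hspd1 was 169 ± 8.55 and 184 ± 13.1 CPM (-0.14, SE 0.06). Neither passed edgeR's test, with adjusted p of 0.460 and 0.302.

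Most pairs of members varied together across the 15 libraries. Pairs of other genes were not examined, so no share over all genes stands beside these counts. Of 45 pairs, 42 had a positive Pearson correlation of log2 CPM, with a median r of 0.44, and 8 passed a permutation test after Benjamini-Hochberg adjustment over the 45, all positive. After removal of group means the median r was 0.32. Without the choroid-rich libraries 0 of 45 pairs passed, with a median r of 0.33 over 10 libraries.

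Hspa5 took part in 5 of the 8 pairs. Hspa5 and Hspb1 had r = 0.82 (permutation p = 0.000330, adjusted 0.00774) and Spearman's rho = 0.73 (permutation p = 0.00324, adjusted 0.0301). Without the 2 libraries farthest from the median of Hspa5 r was 0.57, without the choroid-rich libraries 0.72 and after removal of group means 0.83. Hspa5 and Hsph1 had r = 0.78 and rho = 0.75 (permutation p of 0.000630 and 0.00216, adjusted 0.00774 and 0.0301), with 0.60 without the 2 farthest libraries, 0.78 without the choroid-rich libraries and 0.57 after removal of group means. Among cytosolic members, Hsp90aa1 and Hsph1 had r = 0.76 and rho = 0.79 (permutation p of 0.000810 and 0.000690, adjusted 0.00774 and 0.0301), with 0.79 without the 2 farthest, 0.82 without the choroid-rich libraries and 0.53 after removal of group means. The inducible Hspa1b paired with its partner Dnajb1 at r = 0.70 and rho = 0.65 (permutation p of 0.00367 and 0.00955, adjusted 0.0236 and 0.0430), with 0.40 without the 2 farthest libraries, 0.63 without the choroid-rich libraries and 0.61 after removal of group means. The permutations did not keep the groups apart, so these p-values include differences between groups.

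The genes most like 4 of the members over the 15 libraries were taken from 12156 genes with a mean of at least 5 CPM, as a description with no test, since libraries share groups and choroid content. For Hspa5 they were Xbp1 (r = 0.96), Pdia6 (0.95), Pdia4 (0.95) and Dnajb11 (0.93), all on the ER list, and without the choroid-rich libraries r was 0.97, 0.88, 0.90 and 0.93. For Hspb1, a cytosolic protein, they were also ER genes, Dnajb11 (0.86), Calr (0.84), Manf (0.83) and P4hb (0.83), with r from 0.67 to 0.76 without the choroid-rich libraries. For Hspa8 they were Rpn1 (0.93), a subunit of the ER glycosylation complex, Anapc16 (0.92), Itpk1 (0.91) and the glycolytic enzyme gene Pgk1 (0.89). For Hspa1b they were Cdk2ap2 (0.75), Fam227a (0.75), Bloc1s4 (0.72) and Manf (0.71).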

How the data were processed

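The authors deposited 1 table of raw read counts per Ensembl gene, from poly(A) RNA prepared with a strand-specific kit according to the labels' protocols. FastQC, Bowtie2 2.2.2, HTSeq 0.11.2 and DESeq2 appear in the submitters' processing notes, with build GRCm38. Bowtie2 is not splice-aware, so reads over exon junctions can be lost, and the sources used here state neither annotation release nor strand setting. HTSeq summary lines (no feature 20.0 to 25.9%, ambiguous 1.64 to 1.79%, not unique 2.70 to 2.92%) stayed out of library sizes.

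From these counts, CPM were calculated with TMM scaling, and CPM per kb with the GENCODE M21 exon length, merged over all transcripts of a gene. Symbols matched 45143 of 46078 identifiers, and no row matched Hspa14. Tests were two-sided with edgeR 4.0.16 in R 4.3.3 (glmQLFit, glmQLFTest) on the 18974 genes kept by filterByExpr (minimum count 10). The model held group and labelled sex over all 15 libraries (11 residual degrees of freedom), with Benjamini-Hochberg adjustment over all genes tested and a threshold of 0.05. Single values used exact permutation tests of the difference in mean log2 CPM, without the sex covariate. Correlations used log2 CPM (prior count 2) with 100000 permutations. No library was a duplicate, since chi-square per degree of freedom was 7.94 to 39.4 in the 30 pairs within groups. Alternatives were DESeq2 1.42.0, RLE factors, library size alone, other filters, no sex covariate, sex read from the genes, the animal number series, only the 2 groups compared, no choroid-rich libraries, Hspa1a and Hspa1b summed, and each library left out. The scripts were tested on simulated counts.

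The 10 members and all gene lists were chosen with earlier results of these data known. Named genes were all members; from each other list the genes past the threshold, up to 6, or the 2 of smallest p where none passed; and the 4 genes most like Hspa1b, Hspa8, Hspa5 and Hspb1. Other ER genes, and Hspd1 in the third comparison, were named after their values were seen.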

Additional observations from a re-analysis of the deposited data

Results flagged for a closer look

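Within the groups of 5, single libraries stood apart from the other 4 in 3 of the 30 combinations of member and group, by a gap to the nearest library that exceeded Dixon's 95% critical value. Chance alone flags about 1 in 20 such groups where values are independent and normally distributed, which was not tested here. The share of all genes flagged by this rule was not computed. Hspa5 in WT replicate 5 was at 629 CPM, with the other WT libraries between 354 and 403 CPM; the same library had the most Ttr of all 15. Hspa8 in anti-CD8a replicate 2 was at 1008 CPM, with the other treated libraries between 849.6 and 892 CPM. Hsp90aa1 in WT replicate 2 was at 866 CPM, below the other WT libraries at 993 to 1035 CPM.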

How the results depend on the processing

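No paired analysis was possible because no animal number in the labels is shared between groups. Over the alternatives other than leaving out 1 library, 312 values kept their direction and side of the threshold, 13 reversed, 2 newly passed and 3 no longer passed; over libraries left out in turn, 435 kept both, 13 reversed and 2 no longer passed.

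Members past the threshold in treated APP-PS1 against WT mice numbered 1, against 2 with DESeq2, 0 without the sex covariate, 0 with only the 2 groups compared, 0 without the choroid-rich libraries, and 0 to 1 over libraries left out. In treated against PBS-given APP-PS1 mice DESeq2 gave 1 in place of 0, and leaving out libraries gave 0 throughout. For the ER stress list, an alternative count chosen after seeing the data, 3 genes passed in treated against WT mice, 7 with DESeq2, 6 with no filter, 1 without the sex covariate, 1 with only the 2 groups, 0 without the choroid-rich libraries and 0 to 6 over libraries left out; in treated against PBS-given APP-PS1 mice DESeq2 gave 1. The number of member pairs past the threshold was 8, and 0 without the choroid-rich libraries. The cause of these differences was not tested. Fits that leave out libraries also have fewer of them.

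Between the genotypes, estimates reversed without the choroid-rich libraries for Hspa1a (0.20), Hspa5 (0.10), Hspa8 (0.064), Hsph1 (0.028) and Hspb1 (0.20). Hsp90aa1, at -0.0026, was at 0.0018 with DESeq2, 0.0019 with RLE factors, 0.013 with library size alone, 0.015 with a mean of at least 1 CPM, 0.00079 without the sex covariate and 0.0062 with the animal number series. Over libraries left out, genotype estimates ran from -0.32 to 0.065 for Hspa1a, -0.28 to 0.021 for Hspa5, -0.033 to 0.019 for Hsp90aa1, -0.055 to 0.017 for Hsph1 and -0.42 to 0.10 for Hspb1. In treated against PBS-given APP-PS1 mice the estimate of Hspa1a ran from -0.12 to 0.16 over libraries left out. The summed counts of Hspa1a and Hspa1b were at -0.13 there, which is counted above as a reversal of Hspa1a. In treated against WT mice Hspa1a reversed without the choroid-rich libraries (0.23), and ran from -0.19 to 0.11 over libraries left out. The log2 fold change of Hspa5 in treated against WT mice stayed between -0.80 and -0.38 in all of these. Hspa1a, Hspa1b and Hspb1, at 1.54 to 8.80 CPM, had the fewest counts and the widest intervals.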

Other observations

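Other gene groups were measured in the same libraries. Immediate early genes, which neurons raise on firing, had higher estimates in treated than in PBS-given APP-PS1 mice for 14 of 15 (median log2 fold change 0.67), with 0 past edgeR's threshold, 14 at an unadjusted p under 0.05 and 4 called higher by DESeq2, beside 7.59% and 0.507% of all genes in that direction. Their summed level was 474 to 554 CPM in WT mice, 329 to 525 in PBS-given and 417 to 698 CPM in treated APP-PS1 mice. The groups overlapped. Between the genotypes 14 of these 15 had lower estimates (median -0.36), beside 53.1% of all genes, and 1 passed edgeR's threshold, beside 0.0896% lower. In treated against WT mice 12 were higher and 3 lower (median 0.23), beside 48.9% higher over all genes, with 0 past edgeR's threshold. The treatment and genotype comparisons share the PBS-given APP-PS1 mice. Genes of the glucocorticoid response, among them the HSP90 cochaperone Fkbp5, had lower estimates in treated than in PBS-given APP-PS1 mice for 9 of 10 (median -0.36). Of the 10, 0 passed edgeR's threshold. In the lower direction 6 had an unadjusted p under 0.05 and DESeq2 called 1, beside 5.74% and 0.529% of all genes. The remaining gene was higher, also at an unadjusted p under 0.05, beside 7.59% of all genes in that direction. Microglial markers summed to 323 to 383 CPM in WT mice, 471 to 593 in PBS-given and 456 to 808 CPM in treated APP-PS1 mice, and 3 of 6 rose between the genotypes in edgeR, beside 0.938% of all genes. Summed CPM of the 10 chaperone genes ran from 4291 to 5007 in WT mice, 4078 to 4671 in PBS-given and 3996 to 4522 CPM in treated APP-PS1 mice, and overlapped between all groups.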
